A study of Mus musculus with 4 samples.

Results

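Imprinted genes are read from 1 parental chromosome only, and 10 of them that lie outside the insulin-like growth factor axis are described here in the livers of mice with and without a viral oncogene. They are Peg3, Sgce, Dlk1, Mest, Plagl1, Impact and Ndn, for which expression from the paternal copy is known, Slc22a18 and Grb10, for which expression from the maternal copy is known in peripheral tissues, and Gnas, whose transcripts differ in the copy they use. All probe sets with 1 of these names as their single platform gene symbol were taken, which gave 18 of the 12422 probe sets of the array that are not controls. The parental copy is textbook knowledge and was not measured, since these arrays cannot tell the alleles apart.

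Total liver RNA was hybridised to Affymetrix MG_U74Av2 arrays, with 2 arrays of PEPCK-TAg transgenic mice and 2 of non-transgenic wild-type mice. All were male B6SJL hybrids of 50 to 66 days, fed for 4 weeks after weaning on a diet of 65% protein and 10% carbohydrate. The transgene encodes both SV40 tumour antigens, large T and small t, and by its name it is driven by the promoter of PEPCK, an enzyme of glucose synthesis made mainly in hepatocytes and kidney. The series speaks of duplicate measurements without saying whether 2 mice or 1 gave the arrays of a group, so the p-values below cover only the scatter from array to array, which may be technical.

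Imprinting is set in the germ line by DNA methylation at control regions, and the methylated and unmethylated copies are then kept apart through every cell division by the maintenance methyltransferase and its partners. Many imprinted genes act on fetal growth: several paternally expressed ones promote it and several maternally expressed ones restrain it. A group of them, Plagl1, Dlk1, Mest, Peg3 and Grb10 among it, is strongly expressed in fetal organs, liver included, and is turned down after birth.

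The median deposited signal lay at 77.0 and 84.7 on the PEPCK-TAg arrays and at 68.4 and 66.6 on the wild-type arrays. All 9 hepatocyte markers with a probe set could be tested. Their signals summed to 43688 and 54927 in PEPCK-TAg liver and 74564 and 76472 in wild-type liver. Against the sum, Fgb was higher in PEPCK-TAg liver without overlap (4807.3 and 5284.4 against 3939.5 and 3146.6). Apob was higher with overlapping groups (3819.8 and 3643.3 against 3731.2 and 2150.5), and neither passed limma's threshold. Markers of other cells moved between the groups too, where 9.56% of all 5954 tested genes rose and 3.34% fell, each taken by its brightest tested probe set. Of the tested genes, 8 of 9 markers of cycling cells rose, with summed signals of 9311 and 8189 in PEPCK-TAg liver and 1001 and 797.8 in wild-type liver. The same held for 5 of 10 myeloid markers (5061 and 7607 against 1562 and 1523), 5 of 8 erythroid markers (7654 and 10710 against 3250 and 3347) and 3 of 3 tested markers of biliary and progenitor cells (2267 and 3404 against 129.1 and 142.8). Of these rises, 4 of the cycling, 3 of the myeloid, 2 of the erythroid and 2 of the biliary and progenitor ones were of genes that entered the test through the PEPCK-TAg arrays alone. The biliary sum was mostly Cd24a (1971 and 2766 against 59.6 and 75.1), and Krt7 (13.7 and 11.5 against 30.0 and 8.2) and Epcam (1.8 and 3.9 against 9.1 and 13.8) were too dim to test. Itgam and Marco of the myeloid list and Krt19 of the biliary list were at the floor on all 4 arrays. In bulk liver, fewer cells of a type and less RNA per cell cannot be told apart, and the part of these cells in any result below was not tested. Of the lists that moved less, 1 of 6 tested stellate cell and fibroblast markers rose (Col3a1). Of 4 tested lymphocyte markers 1 rose (Ptprc), which entered the test through the PEPCK-TAg arrays alone. The median log2 difference of these 4 was -0.61, with 1 lower at limma's unadjusted p under 0.05. Of 8 endothelial and 4 neuronal and glial markers tested, 0 passed limma's threshold. At limma's unadjusted p under 0.05, 3 of the 8 endothelial markers were higher and 0 were lower, where 20.1% and 11.0% of all tested genes were. Their median log2 difference was 0.44, and the endothelial list summed to 1782 and 1999 in PEPCK-TAg liver and 2530 and 1308 in wild-type liver.

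Peg3 and Sgce were several-fold higher and Slc22a18 was lower in PEPCK-TAg liver, while the other members either did not pass limma's threshold or were too dim to test. Testing required a signal above 41.3, the 40th percentile of all signals, on 2 or more of the 4 arrays, and signals under 10.6, the 20th percentile, were raised to that floor before log2 was taken. By this rule 8 of the 18 probe sets, of 6 genes, were tested, and the other 10 lay below 41.3 on every array. In limma's moderated test with Benjamini-Hochberg adjustment over all 7877 probe sets tested, 3 member probe sets were higher (9.1% of all probe sets tested were) and 1 was lower (3.4% of all were). The 4 others did not pass an adjusted p of 0.05. The groups did not overlap in 4 higher and 2 lower member probe sets, where 33.3% of all tested probe sets were higher and 26.5% lower without overlap. With a difference of at least 2-fold as well, 3 member probe sets, of 2 genes, were higher and 1 was lower. The shares over all tested probe sets were 14.7% and 5.87%. Of the 3, 1 entered the test through the PEPCK-TAg arrays alone. The tested members had a median log2 difference of 0.20 and all probe sets tested had 0.051, or -0.088 under quantile normalization, a shift of -0.14 that touches every probe set. With 2 arrays per group the smallest p of an exact permutation test is 0.333, so single genes rest on limma's fit.

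**Figure D1:**
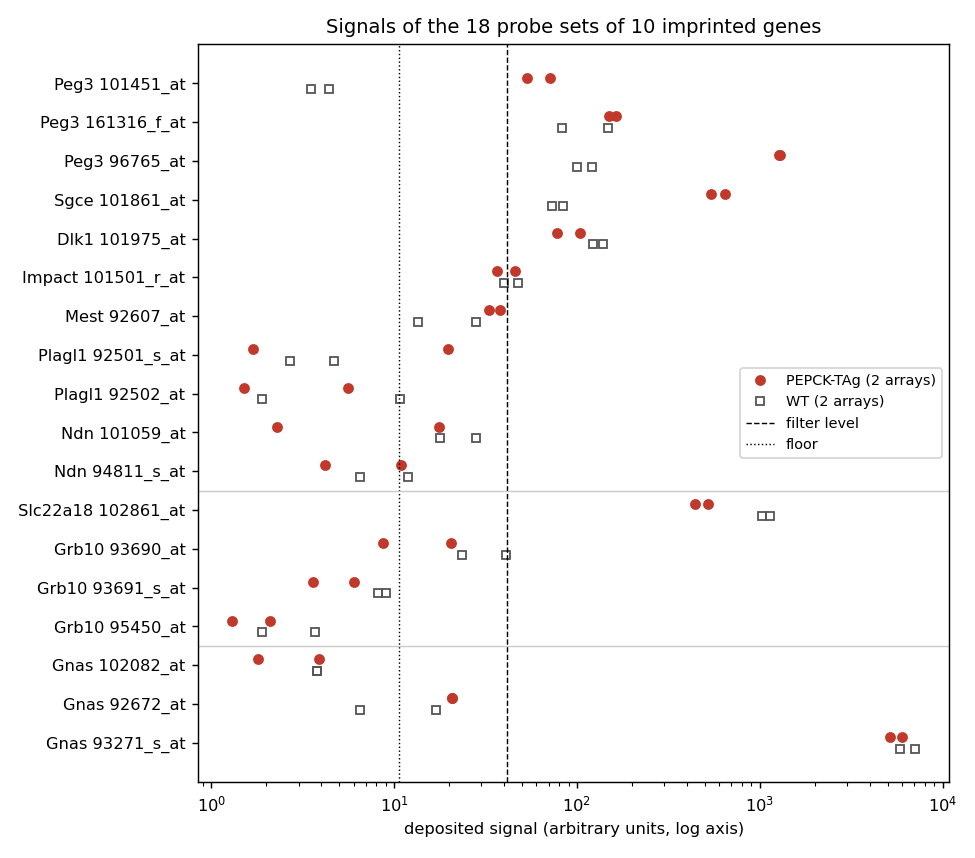
Deposited signal (log axis) of each of the 18 probe sets on every array, filled circles for PEPCK-TAg and open squares for wild-type liver, with grey lines between paternally expressed genes (top), maternally expressed genes and Gnas (bottom). The brightest Peg3 probe set, Sgce and Slc22a18 stand apart between the groups and above the filter level of 41.3 (dashed), while the probe sets of Plagl1, Ndn, Mest and Grb10 lie below it; the floor is at 10.6 (dotted).

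Peg3 encodes a large zinc finger protein that is made from the paternal copy, takes part in p53-dependent cell death in cultured cells and shapes growth and maternal behaviour in mice. Its brightest probe set read 1298 and 1281 in PEPCK-TAg liver and 100 and 120.4 in wild-type liver. The arrays of each group lay close together and far from those of the other group. The difference was 11.7-fold (log2 difference 3.55 ± 0.24 SE, adjusted p = 0.000927 by limma with 2 arrays a group). The dimmest of its 3 probe sets read 70.9 and 53.1 in PEPCK-TAg liver and 4.4 and 3.5 in wild-type liver, where both arrays were below the floor. It was at least 5.79-fold higher (log2 difference 2.53 ± 0.46 SE, adjusted p = 0.0174). This probe set entered the test through the PEPCK-TAg arrays alone, so that it had to differ, and its SE holds no spread from wild-type liver. With a floor at the 40th percentile its log2 difference was 0.57 (adjusted p = 0.145). The third probe set read 149.7 and 163.0 in PEPCK-TAg liver and 82.7 and 147.6 in wild-type liver. It did not share the size of the rise: its groups did not overlap, but its lower array in PEPCK-TAg liver was next to the higher one in wild-type liver (log2 difference 0.50 ± 0.36 SE, 95% interval -0.36 to 1.35, adjusted p = 0.390). Its identifier carries the suffix f, which Affymetrix gives to probe sets that can detect related family members.

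The RefSeq promoter table (build GRCm38.p6) held windows for 8 of the 10 members. The 250 bases before the start are printed for Peg3 and Slc22a18, as the members with a called difference and an entry in it. The Peg3 window is chr7:6730420-6730669 on the minus strand and that of Slc22a18 chr7:143473539-143473788 on the plus strand. Capitals mark each CG dinucleotide, the letters that DNA methylation acts on, and 1 run of GGGGCCCC, the sequence bound by the zinc finger protein Plagl1:
Peg3: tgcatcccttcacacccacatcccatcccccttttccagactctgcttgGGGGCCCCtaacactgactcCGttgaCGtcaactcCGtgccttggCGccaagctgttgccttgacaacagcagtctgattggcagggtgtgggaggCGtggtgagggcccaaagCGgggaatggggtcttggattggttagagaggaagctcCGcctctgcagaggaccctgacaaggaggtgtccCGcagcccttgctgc
Slc22a18: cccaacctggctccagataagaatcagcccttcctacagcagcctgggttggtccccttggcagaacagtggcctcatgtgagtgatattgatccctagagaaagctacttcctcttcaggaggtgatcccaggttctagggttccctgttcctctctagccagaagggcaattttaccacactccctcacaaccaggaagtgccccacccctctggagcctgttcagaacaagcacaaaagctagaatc
Peg3 had 8 CG dinucleotides in these 250 bases and Slc22a18 had 0, where the median of all 32851 windows in the table was 6. Between the member windows the number ran from 0 to 40, the highest in Grb10. GGGGCCCC, which reads the same on both strands, began 201 bases before the start of Peg3 (position -201) and was found in no other member window. It occurred in 1.08% of all windows of 300 bases. The letters TTTCGCGC and TTTGGCGC, of the kind bound by E2F factors, were found on either strand in 0 of the 14 member windows, and in 0.323% and 0.514% of all windows. A match is a description of the letters and not a measured site.

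Sgce encodes epsilon-sarcoglycan, a membrane glycoprotein that joins the dystrophin-associated complex, and it too is read from the paternal copy. Its single probe set read 543.5 and 645.2 in PEPCK-TAg liver and 73.0 and 83.6 in wild-type liver. Both transgenic arrays were far above both wild-type arrays, and the arrays of a group differed by at most 0.25 on the log2 scale. The difference was 7.57-fold (log2 difference 2.92 ± 0.26 SE, adjusted p = 0.00168). PEPCK-TAg 1 and wild-type 1 shared a scan day, and between them alone the log2 difference was 2.89 for Sgce and 3.70 for the brightest Peg3 probe set. Both genes are known from mesenchymal cells and neurons in other organs. Of the 10 neuronal and glial markers with a probe set, Syp, Snap25, Nefl and Nefm were at the floor on all 4 arrays. Tubb3 (910.0 and 1118 in PEPCK-TAg liver, 204.6 and 690.8 in wild-type liver), Mbp and the untested Gap43 were higher without overlap, but neither Tubb3 (adjusted p = 0.135) nor Mbp (adjusted p = 0.235) passed, and the list summed to 1195 and 1410 in PEPCK-TAg liver and 491.2 and 1019 in wild-type liver. At limma's unadjusted p under 0.05, 1 of the 4 tested neuronal and glial markers was higher and 1 was lower. The median log2 difference of these 4 was 0.16. The stellate cell and fibroblast list summed to 2502 and 2574 in PEPCK-TAg liver and 3174 and 3156 in wild-type liver. Dcn made up most of that sum (1270 and 1291 against 1905 and 1590), while Col3a1 rose 2.33-fold (adjusted p = 0.0418). The untested Thy1 (31.0 and 75.1 against 8.9 and 10.4) and Acta2 (54.0 and 29.8 against 10.4 and 10.8) were higher without overlap. Lower without overlap were the untested Pdgfrb (16.9 and 14.9 against 29.2 and 30.2) and the brightest tested Col1a2 probe set. The latter read 263.8 and 331.1 against 433.4 and 561.5 (limma adjusted p = 0.124). At limma's unadjusted p under 0.05, 1 of the 6 tested markers of this list was higher and 2 were lower. The part of either list in the differences of Peg3 and Sgce was not tested.

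Slc22a18, a membrane transporter related to those of organic cations and read from the maternal copy, was the member that fell. Its single probe set read 443.4 and 519.6 in PEPCK-TAg liver and 1023 and 1131 in wild-type liver. The groups were well apart, and the level in PEPCK-TAg liver was 44.6% of that in wild-type liver (log2 difference -1.17 ± 0.23 SE, adjusted p = 0.0237), against -1.21 in the same-day pair. With no filter on dim probe sets its adjusted p was 0.0827. The hepatocyte markers beside it had a median log2 difference of -0.58, with 2 of 9 tested lower (Ttr and Tat). Fgb (log2 difference 0.52) and Apob (0.40) were higher but did not pass.

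Among the same 7877 probe sets, these calls were lost when either PEPCK-TAg array was left out. Without PEPCK-TAg 1 the adjusted p was 0.0911 for the brightest Peg3 probe set, 0.109 for Sgce and 0.233 for Slc22a18, and without PEPCK-TAg 2 it was 0.101, 0.124 and 0.192. In both cases limma called 0 of the 7877 probe sets, although 3 higher and 1 lower member probe sets had an unadjusted p under 0.05. With the filter applied anew to the remaining 3 arrays, the brightest Peg3 probe set passed without PEPCK-TAg 1 and without PEPCK-TAg 2 (adjusted p = 0.0144 and 0.0207), as did Sgce (0.020 and 0.0312), while Slc22a18 did not (0.226 and 0.150). Fluidics station 2 held PEPCK-TAg 2 alone. A block on station therefore gave the same log2 differences as leaving that array out (3.56, 2.80 and -1.28), and the calls were lost in it too. Likewise 1 scanner type held wild-type 2 alone, so a block on it repeats leaving wild-type 2 out. Without wild-type 1 the log2 differences were 3.42 for the brightest Peg3 probe set, 2.82 for Sgce and -1.24 for Slc22a18. Without wild-type 2 they were 3.69, 3.02 and -1.09. The sizes moved little under any of these settings: the brightest Peg3 probe set lay between 3.42 and 3.70, Sgce between 2.74 and 3.04 and Slc22a18 between -1.28 and -1.05 on the log2 scale over all alternatives. The chip lot cannot be told apart from the group, since no lot held arrays of both groups and a lot correlation could be estimated for 0 probe sets.

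Dlk1, a membrane protein of the Delta family that marks hepatoblasts of the fetal liver, did not join Peg3 and Sgce. Its single probe set read 77.5 and 103.9 in PEPCK-TAg liver and 139.5 and 122.9 in wild-type liver. Both transgenic arrays were the lower ones, but the difference did not pass (log2 difference -0.55 ± 0.31 SE, 95% interval -1.29 to 0.20, adjusted p = 0.284). Impact, an inhibitor of the amino acid sensor GCN2, read 46.0 and 36.5 in PEPCK-TAg liver and 39.8 and 47.8 in wild-type liver. Its 4 values crossed between the groups around the filter level (log2 difference -0.092, 95% interval -1.03 to 0.85, adjusted p = 0.901). Gnas encodes the stimulatory G protein subunit that couples receptors such as that of glucagon to cyclic AMP. Its bright probe set read 5134 and 5988 in PEPCK-TAg liver and 7067 and 5874 in wild-type liver. The groups overlapped (log2 difference -0.22, 95% interval -0.77 to 0.33, adjusted p = 0.560), and the sign turned to 0.28 under quantile normalization. The transcripts of Gnas that are read from 1 copy share exons with the one read from both copies in most tissues, and the files do not say which of them each probe set detects. A second Gnas probe set was at the floor on all 4 arrays, and the third read 20.6 on both PEPCK-TAg arrays and 17.0 and 6.5 in wild-type liver.

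The 4 members below the filter level on all arrays were Mest, Plagl1, Ndn and Grb10, whose signals ran from 1.3 to 40.8 together with those of the dim Gnas probe sets. No level is claimed for them, and a difference at this brightness could not be tested. Mest, a fetal enzyme of the hydrolase fold, came nearest among the paternally expressed ones with 32.9 and 38.1 in PEPCK-TAg liver and 28.0 and 13.5 in wild-type liver. Plagl1, a zinc finger transcription factor that arrests the cell cycle, read 1.7 and 19.6 in PEPCK-TAg liver and 4.7 and 2.7 in wild-type liver on one probe set. The other read 1.5 and 5.6 in PEPCK-TAg liver and 1.9 and 10.7 in wild-type liver, so that neither probe set stood above the dim range. Ndn, or necdin, is a growth suppressor of neurons that binds E2F1 and SV40 large T. It read 2.3 and 17.5 in PEPCK-TAg liver and 17.9 and 28.0 in wild-type liver on the brighter probe set. The dimmer one read 4.2 and 10.9 in PEPCK-TAg liver and 11.9 and 6.5 in wild-type liver. Grb10, an adaptor that dampens signalling from the insulin receptor, read 20.4 and 8.7 in PEPCK-TAg liver and 40.8 and 23.4 in wild-type liver on its brightest probe set. The groups did not overlap there, and 1 transgenic array was below the floor, which makes the fold of at least 2.10 a bound. Both other Grb10 probe sets were at the floor on all 4 arrays. Over the 10 untested member probe sets, the groups did not overlap in 2 higher and 2 lower ones, where the share was 11.6% and 11.0% of all 4545 untested probe sets.

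Set by the parental copy, 4 of the 7 paternally expressed members could be tested, of which Peg3 and Sgce rose and Dlk1 and Impact did not pass. Of the 2 maternally expressed members 1 could be tested, Slc22a18, which fell. A list of other imprinted genes outside the growth factor axis gave the wider view. It names 45 genes, 25 of which had a probe set and 15 a tested one. All 15 are listed as maternally expressed, some of them only in certain tissues such as placenta. Of the 7 paternally expressed genes with a probe set, 0 passed the filter. On the brightest tested probe set of each gene, 2 of the 15 rose and 0 fell, against the 9.56% and 3.34% of all 5954 genes. Both entered the test through the PEPCK-TAg arrays alone, so that they had to differ. At an unadjusted p under 0.05, 5 of the 15 were higher and 1 was lower, where 20.1% and 11.0% of all genes were. Their median log2 difference was 0.025.

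Cdkn1c, the CDK inhibitor p57 that restrains fetal growth, read 262.5 and 221.8 in PEPCK-TAg liver and 23.8 and 26.2 in wild-type liver. It rose 9.65-fold (log2 difference 3.27 ± 0.32 SE, adjusted p = 0.00220), and is read from the maternal copy, as is Slc22a18, which fell. Tspan32, a tetraspanin of blood cells, read 130.2 and 183.3 in PEPCK-TAg liver and 20.3 and 35.4 in wild-type liver, and rose 5.76-fold (2.53 ± 0.42 SE, adjusted p = 0.0125) beside the myeloid and erythroid markers given above. Meg3, a noncoding RNA made from the maternal copy of the Dlk1 region, read 21.6 and 36.8 in PEPCK-TAg liver and 81.5 and 78.8 in wild-type liver on its brighter probe set. Both of its transgenic arrays were below both wild-type ones, with a log2 difference of -1.51 ± 0.42 SE that did not pass (adjusted p = 0.0633). The dimmer Meg3 probe set was not tested and read 12.9 and 12.0 in PEPCK-TAg liver and 24.3 and 31.9 in wild-type liver. Osbpl5, a lipid transfer protein, had a log2 difference of 1.20 ± 0.44 SE (adjusted p = 0.123) with no overlap between the groups. Gatm, an enzyme of creatine synthesis imprinted in placenta, had 1.05 ± 0.39 SE (adjusted p = 0.132), also without overlap. Igf2, the paternally expressed growth factor of the axis left aside here, read 6051 and 7514 in PEPCK-TAg liver and 42.8 and 138.8 in wild-type liver on its tested probe set. An untested Igf2 probe set was at the floor on all 4 arrays. The maternally expressed receptor of this factor, Igf2r, read 610.3 and 535.0 in PEPCK-TAg liver and 465.5 and 425.5 in wild-type liver.

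**Figure D2:**
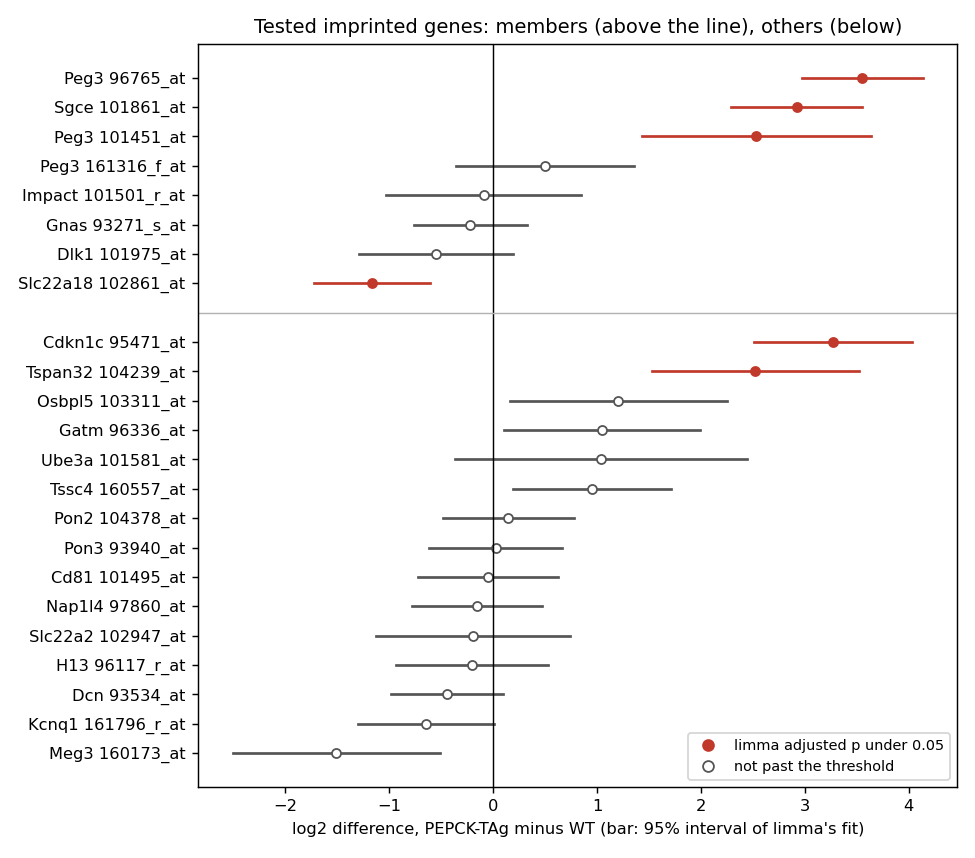
Log2 difference of PEPCK-TAg minus wild-type liver with the 95% interval of limma's fit, for the 8 tested member probe sets (above the line) and the brightest tested probe set of 15 other imprinted genes (below it). Filled points passed an adjusted p of 0.05: 3 member probe sets and 2 other genes were higher and Slc22a18 was lower, and the dimmest Peg3 probe set is a lower bound because both wild-type arrays were below the floor.

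Neighbours on the chromosome were described next. For each member the 3 nearest protein-coding genes on either side with a probe set of their own were taken from the RefSeq gene order, a choice made after the members' values were seen. Of these 60 genes 47 were tested, and 2 rose and 3 fell, where 9.56% of all tested genes rose and 3.34% fell. Next to Peg3, 0 of 4 tested neighbours passed limma's threshold, and Usp29, a paternally expressed gene beside it, read 13.9 and 3.2 in PEPCK-TAg liver and 6.4 and 13.4 in wild-type liver. Beside Sgce lies Peg10, which is also read from the paternal copy. Its probe set read 17.8 and 21.4 in PEPCK-TAg liver and 13.1 and 3.7 in wild-type liver, below the filter level. On that side Pon1, a paraoxonase secreted by hepatocytes, fell to 2202 and 2838 in PEPCK-TAg liver, against 5266 and 6912 in wild-type liver (log2 difference -1.27 ± 0.25 SE, adjusted p = 0.0241), while the Pon3 difference was 0.025. On the far side the G protein subunit Gng11 rose by a log2 difference of 1.75 ± 0.42 SE (adjusted p = 0.0421), having entered the test through the PEPCK-TAg arrays alone. Slc22a18 has Cdkn1c as its nearest neighbour with a probe set on one side and Phlda2, also maternally expressed, on the other. Phlda2 read 42.7 and 30.5 in PEPCK-TAg liver and 34.3 and 32.5 in wild-type liver and was not tested. Tssc4 of the same region read 280.9 and 316.6 in PEPCK-TAg liver and 120.6 and 196.1 in wild-type liver, higher without overlap, but did not pass (log2 difference 0.95 ± 0.32 SE, adjusted p = 0.102). Kcnq1 and Nap1l4 gave -0.65 ± 0.27 SE and -0.16 ± 0.26 SE (adjusted p = 0.167 and 0.716), and Cars did not pass either.

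**Figure D3:**
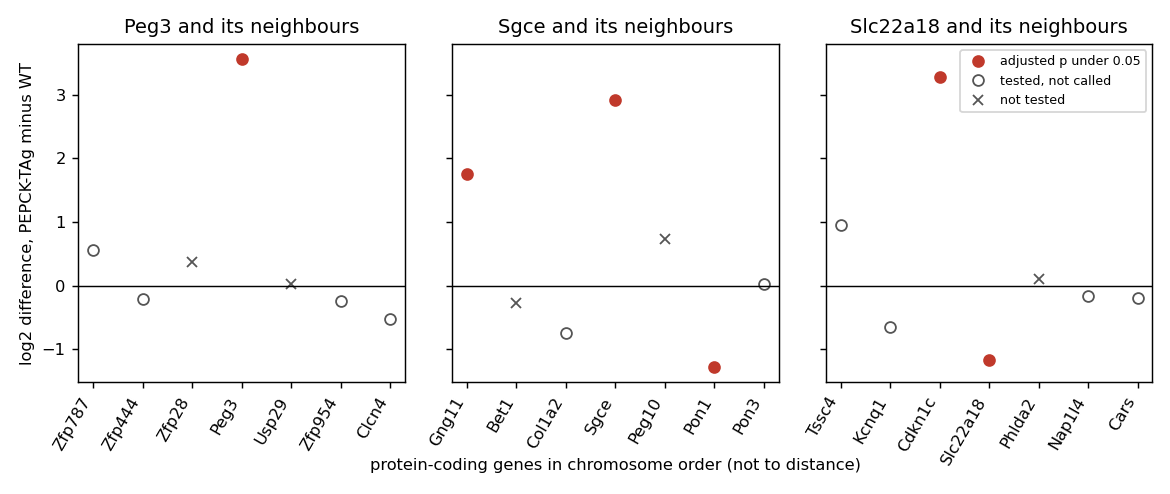
Log2 difference of PEPCK-TAg minus wild-type liver for Peg3, Sgce, Slc22a18 and the 3 nearest protein-coding genes with a probe set on either side, in chromosome order and not to distance. Filled points passed an adjusted p of 0.05, open points did not and crosses were not tested: Peg3 stands alone, Sgce lies near Gng11 (higher) and Pon1 (lower), and Slc22a18 (lower) is next to Cdkn1c (higher).

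Genes that copy or guard the methylation marks were described as context for the members. Of 13 listed, 11 had a probe set and 9 were tested, of which 5 rose and 0 fell (9.56% and 3.34% of all genes), with a median log2 difference of 1.45. Uhrf1, which brings the maintenance methyltransferase to newly copied DNA, read 338.6 and 359.3 in PEPCK-TAg liver and 22.0 and 19.5 in wild-type liver, a rise of 16.8-fold (log2 difference 4.07 ± 0.31 SE, adjusted p = 0.00112). Dnmt1, that methyltransferase, rose 4.30-fold (2.10 ± 0.33 SE, adjusted p = 0.0103) and Hells, a chromatin remodeller, at least 9.54-fold. Uhrf1 and Hells entered the test through the PEPCK-TAg arrays alone. Ezh2 and Suz12, subunits of the Polycomb complex that also silences imprinted genes in placenta, rose 7.34-fold and 2.72-fold. The Suz12 value is of its brightest probe set, and its others were too dim to test. A dim one was lower without overlap (22.0 and 6.8 against 26.0 and 23.5), and another overlapped (23.1 and 19.1 against 14.5 and 22.9). Trim28, the corepressor that protects imprints in the embryo, did not pass (0.68 ± 0.24 SE, adjusted p = 0.112), nor did Ctcf (0.91 ± 0.27 SE, adjusted p = 0.0759) or the Polycomb subunit Eed (1.16 ± 0.39 SE, adjusted p = 0.105). Zfp57, the zinc finger protein that recruits Trim28, was at the floor on all 4 arrays. These 5 rises stood beside those of 8 of 9 cycling cell markers. Methylation itself was not measured.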

How the data were processed

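The deposited value table holds, for each array, a linear intensity per probe set, which the authors computed with MAS5 per the submitters' processing notes (version not given in the sources used here). Trimmed by 2%, the mean deposited signal was 250.1 to 250.2 on every array, so they had been scaled to 1 level. Experiment records were deposited as text and gave chip lot, fluidics station, scanner type and scan day, with no measurement. Linear scaling does not equalise distributions, and dim signals lose meaning near the background.

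Arrays were scaled to the mean of their trimmed means without the 66 control probe sets, floored at the 20th percentile (10.6) and put on a log2 scale. Probe sets with at least 2 arrays above the 40th percentile (41.3) were fitted with limma 3.58.1 in R 4.3.3 (group only, intensity trend, two-sided, Benjamini-Hochberg over 7877 probe sets, 6.60 degrees of freedom). The SE is limma's moderated one. The procedure was tested on simulated data. Symbols came from the platform annotation, and 10 of 10 matched RefSeq. All 18 member probe sets are named. Of the other imprinted genes and imprint guardians, those called and up to 3 with the largest difference were to be named, and others named here were chosen after their values were seen. Members and lists were chosen with earlier results of these data known. Alternatives covered scaling, floor, filter, arrays left out, blocks and the variance model. Chip lot as a random block, and the filter applied anew with an array left out, were chosen after seeing the data. Same-numbered arrays were checked for pairing by the correlation of the differences between replicates over probe sets, which was 0.25 between the groups. With 2 arrays per group this does not settle whether the arrays were paired. PEPCK-TAg 1 and wild-type 1 shared a scan day and a fluidics station, while PEPCK-TAg 2 and wild-type 2 shared neither. The replicate block among the alternatives treats same-numbered arrays as pairs.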

Additional observations from a re-analysis of the deposited data

How the results depend on the processing

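Over the alternatives, the differences of the 8 tested member probe sets kept their direction and side of the threshold in 145 of 169 values. Another 17 lost the call. These values are not all separate checks. The blocks on station and on scanner type gave the same log2 differences as leaving out PEPCK-TAg 2 and wild-type 2. The sign turned in 7 values, all of uncalled probe sets: Gnas gave 0.28 under quantile normalization, and Impact, at -0.26 to 0.074 with an array left out, gave 0.074 without PEPCK-TAg 2 (with either filter) and with the station as a block, 0.040 without wild-type 2 and with scanner type as a block, and 0.21 in the same-day pair. The count of higher members was 0 with the station as a block and 0 to 3 with an array left out. The count of lower members was 0 with that block and with no filter, and 0 to 1 with an array left out; with the filter applied anew, the brightest Peg3 probe set and Sgce kept their call without either PEPCK-TAg array and Slc22a18 did not. By limma's unadjusted p under 0.05 these counts were 3 and 1 with the station block and with no filter. The median of the tested members moved to 0.50 with a filter at the 60th percentile, 0.48 with scanner type as a block and 0.53 in the same-day pair, and lay between -0.0019 and 0.92 with an array left out. It rests on few, mixed values. Of the other imprinted genes, 0 were called higher with no filter and with the station block, 5 with a replicate block and 0 to 4 with an array left out. In place of 0, 1 was called lower under quantile normalization, with a floor at the 40th percentile, with a replicate block, without a trend and at an adjusted p of 0.1. The replicate block left the member probe sets at 3 higher and 1 lower (brightest Peg3 probe set, limma adjusted p = 4.82e-05). By size without overlap and with at least 2-fold, 2 member probe sets in place of 1 were lower with no filter. Over all probe sets, 717 higher and 268 lower calls became 129 and 36 with no filter, 1240 and 633 with the replicate block, 1108 and 513 at an adjusted p of 0.1, and 0 with the station block or without either PEPCK-TAg array. The same fit with the filter applied anew called 107 and 60 without PEPCK-TAg 1 and 102 and 43 without PEPCK-TAg 2. The other causes were not tested. The number of arrays limits the precision, and probe sets below the filter level have no usable level.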
